A study of Mus musculus with 42 samples.

Results

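The genes of glycolysis and of the response to low oxygen were followed through the differentiation of mouse embryonic stem cells into embryoid bodies, the cell aggregates that form the early germ layers in culture. A list of 37 genes was matched by symbol, and 36 of them were among the 14296 genes measured. Car9, a carbonic anhydrase of the cell surface, was not analysed here. By role the 36 genes were 9 of upper glycolysis, 9 of lower glycolysis, 4 transporters of glucose or lactate, 3 regulators of glycolysis, 3 genes of oxygen sensing and 8 other genes known to respond to hypoxia.

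The cells were of W9.5, an embryonic stem cell line of strain 129X1/SvJ, at low passage, with no engineered genotype in the labels. All cultures differentiated without directing factors after leukaemia inhibitory factor was withdrawn, and were sampled every 6 h up to 120 h, which gave 21 time points, each as replicate A and replicate B. Each of the 42 libraries held stranded poly-A RNA of a whole culture, so that fewer cells of a type and less RNA per cell cannot be told apart, and both replicates came from a single line. Counted reads per library ranged from 10120972 to 51652434, and 3 reads corresponded to between 0.0572 and 0.316 CPM (reads scaled for the size of the library). Levels are given as log2 CPM, differences as log2 changes with their SE, and a gene was called higher or lower at an adjusted p under 0.0001 in limma, fitted to all libraries with Benjamini-Hochberg adjustment over all genes.

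Glycolysis splits glucose into pyruvate and yields ATP without oxygen, and lactate dehydrogenase then turns the pyruvate into lactate. The transcription factor subunit HIF1 alpha, encoded by Hif1a, is marked for destruction by prolyl hydroxylases (the Egln proteins) when oxygen is present, and when oxygen is scarce it binds DNA at hypoxia response elements and raises many genes of glycolysis. Pluripotent stem cells are known for a high rate of glycolysis.

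The promoters of the 5 genes with the largest fall from 0 h to 6 h among those that also fell from 96 h to 108 h are shown, with that of Gapdh, which was called in no comparison of time points. Each run is the 250 bases before the start site (RefSeq, GRCm38.p6), 5′ to 3′ on the strand of the gene. Capitals mark ACGTG or GCGTG, the core of the hypoxia response element, on either strand, and ACGTG overlaps the E-box CACGTG, which counts as 2 overlapping matches. The runs lie at chr12:54203875-54204124 (minus strand) for Egln3, chr8:45999851-46000100 (minus strand) for Ankrd37, chr7:110627407-110627656 (plus strand) for Adm, chr7:138909507-138909756 (minus strand) for Bnip3, chr11:120948817-120949066 (plus strand) for Slc16a3 and chr6:125165774-125166023 (minus strand) for Gapdh.
Egln3: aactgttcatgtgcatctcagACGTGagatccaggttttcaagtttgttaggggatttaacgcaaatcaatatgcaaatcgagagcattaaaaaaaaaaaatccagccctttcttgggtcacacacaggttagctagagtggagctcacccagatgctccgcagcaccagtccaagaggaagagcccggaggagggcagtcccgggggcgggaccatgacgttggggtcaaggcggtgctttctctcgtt
Ankrd37: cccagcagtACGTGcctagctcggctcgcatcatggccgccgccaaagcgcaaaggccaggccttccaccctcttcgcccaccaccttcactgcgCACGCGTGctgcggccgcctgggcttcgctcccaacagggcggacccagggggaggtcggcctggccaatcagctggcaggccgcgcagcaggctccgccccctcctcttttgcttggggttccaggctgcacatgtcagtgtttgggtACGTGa
Adm: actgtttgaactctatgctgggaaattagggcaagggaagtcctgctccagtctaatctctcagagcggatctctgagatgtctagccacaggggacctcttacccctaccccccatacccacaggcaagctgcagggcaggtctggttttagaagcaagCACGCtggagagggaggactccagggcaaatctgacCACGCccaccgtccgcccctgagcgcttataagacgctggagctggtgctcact
Bnip3: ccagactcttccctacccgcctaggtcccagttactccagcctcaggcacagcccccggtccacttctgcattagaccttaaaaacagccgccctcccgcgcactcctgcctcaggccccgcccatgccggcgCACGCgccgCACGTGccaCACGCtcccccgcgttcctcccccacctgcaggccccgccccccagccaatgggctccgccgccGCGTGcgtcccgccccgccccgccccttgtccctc
Slc16a3: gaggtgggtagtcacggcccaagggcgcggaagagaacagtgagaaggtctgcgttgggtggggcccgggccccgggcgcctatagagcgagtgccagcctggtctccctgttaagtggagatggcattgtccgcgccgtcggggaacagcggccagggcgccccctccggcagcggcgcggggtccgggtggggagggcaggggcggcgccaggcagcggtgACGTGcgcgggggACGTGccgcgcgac
Gapdh: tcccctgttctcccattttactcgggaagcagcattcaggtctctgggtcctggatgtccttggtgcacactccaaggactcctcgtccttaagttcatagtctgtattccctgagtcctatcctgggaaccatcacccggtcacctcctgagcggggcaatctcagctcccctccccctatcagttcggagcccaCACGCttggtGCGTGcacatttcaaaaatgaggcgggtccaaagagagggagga

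Bnip3 held 5 matches in this stretch, Ankrd37 4, and Adm and Slc16a3 2 each, while Egln3 held 1, 229 bases before its start. Gapdh held 2 here and 1 more in the 50 bases after its start. Over windows of 300 bases that include those 50 bases, 39 of 48 windows of the listed genes (81.25%) held at least 1 match, against 43.8% of all 32851 windows in the table. Windows of the listed genes were also richer in G and C, with a median of 62.2% against 52.7% for all windows. Among the 8282 windows of the table between 56.6% and 67.7% GC, 62.55% held a match. These limits are the lower and upper quartiles of the listed windows, whereas the 81.25% is for all 48 of them, so that the sets are unlike. The table matched 34 of the 36 genes, not Ndrg1 and Slc2a3, and 31 of these 34 had a match in at least 1 window. That count per gene cannot be set against the shares per window, since a gene with several windows has more chances of a match. No share per gene is given for all genes. A match is a string of letters and was not tested for binding.

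Expression of 34 of the 36 genes changed over the course by the limma F test, as did 74.6% of all genes measured. Gapdh (adjusted p = 0.0122) and Pfkfb4 (adjusted p = 0.000412) did not pass. The mean level was lowest at 12 h for 10 genes and at 108 h for 6, beside 8.57% and 10.9% of all genes. It was highest at 0 h for 9 genes and at 66 h and 84 h for 6 each, beside 16.6%, 2.36% and 2.73% of all genes. Between 0 h and 6 h and again between 96 h and 108 h most of the list was lower at the later time. The heatmap of mean levels shows both low periods.

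**Figure D1:**
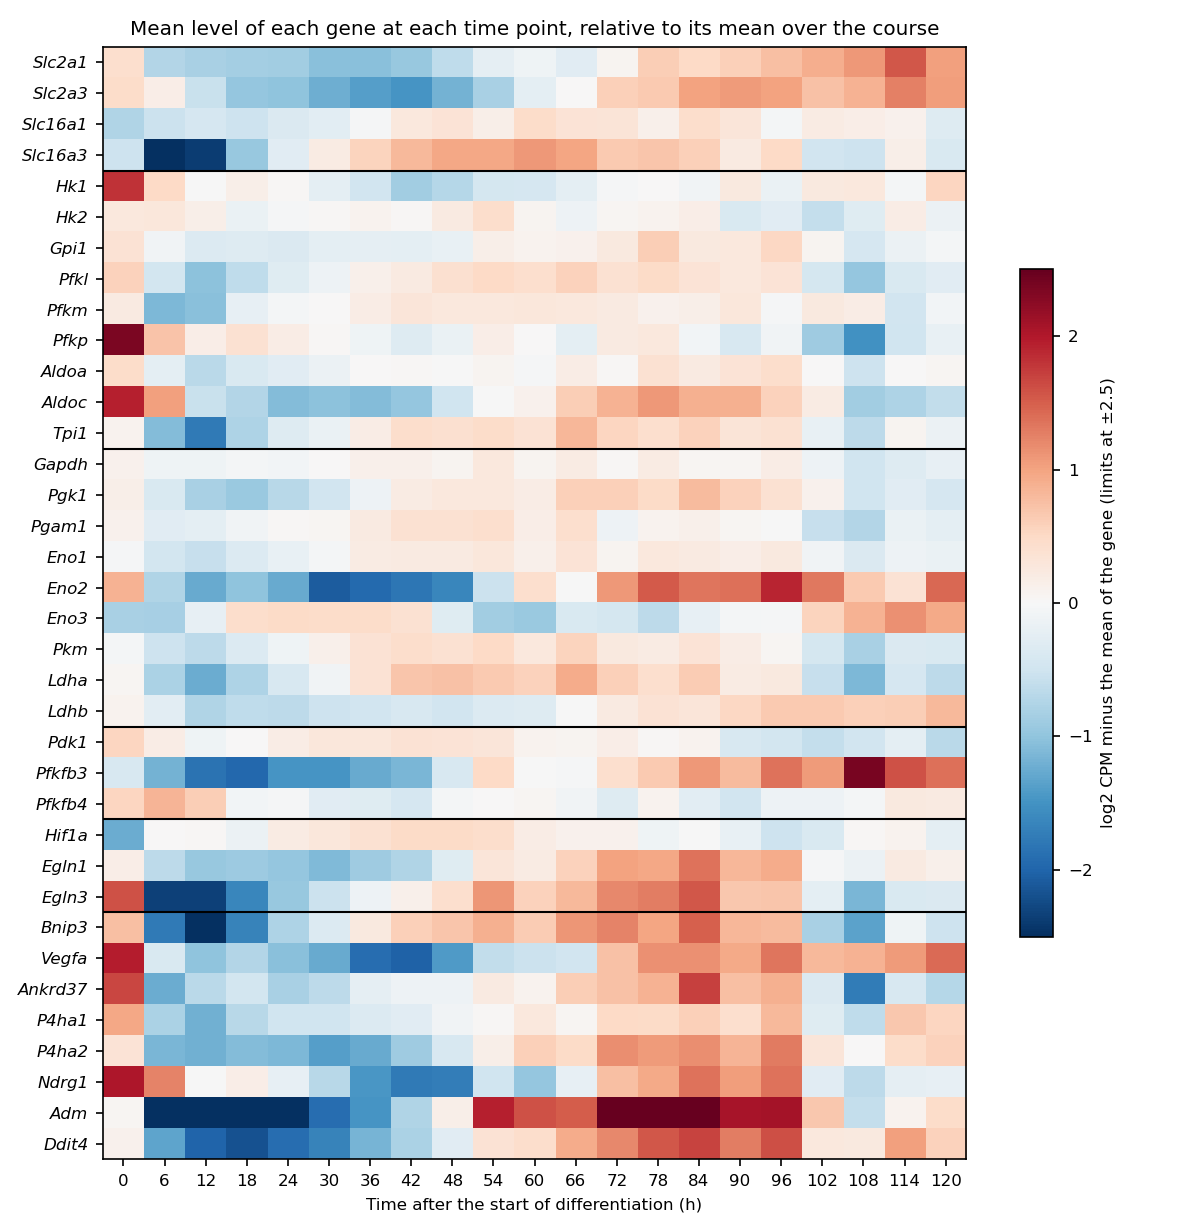
Mean log2 CPM of the 36 genes (rows, grouped by role with lines between the roles: transport, upper glycolysis, lower glycolysis, regulation, oxygen sensing, other hypoxia-responsive) at the 21 time points (columns, in hours), each relative to the gene's mean over the course, with colours limited at 2.5 in either direction. Blue cells mark levels below the gene's own mean, as in many rows at 6 h, 12 h and 108 h; 10 genes had their lowest mean at 12 h and 6 at 108 h.

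The cultures were close at most times and apart at 96 h. The number of listed genes whose levels in replicates A and B differed by more than 0.5 on the log2 scale was 15 of 36 at 96 h and between 0 and 3 at every other time point. At 96 h, 10 of these were higher in replicate A and 5 in replicate B. Slc2a3, a glucose transporter, stood at 11.48 log2 CPM in replicate A and 10.61 in replicate B, whereas Ldha, the lactate dehydrogenase subunit that favours lactate, stood at 10.49 and 11.03. The summed level of the 5 primitive streak markers at that time was 103 CPM in replicate A and 480 CPM in replicate B, and its part in the results was not tested. Counts of calls from 72 h to 96 h and from 96 h to 108 h, and the test of the difference between the falls, are given with and without each of the 96 h libraries.

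From 0 h to 6 h, 20 of the 36 genes fell and 1 rose, beside 14.5% of all genes lower and 11.8% higher. The median log2 change of the 36 genes was -0.83, that of all genes -0.05, and 32 of the 36 values were negative. The fall was counted in 7 of 8 other hypoxia-responsive genes, 6 of 9 of upper glycolysis, 2 of 3 of oxygen sensing, 2 of 4 transporters, 2 of 9 of lower glycolysis and 1 of 3 regulators. The gene that rose was Hif1a.

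Among the genes of oxygen sensing, Egln3, a prolyl hydroxylase and itself a known target of HIF1, stood at 6.71 and 6.74 log2 CPM in replicates A and B at 0 h and at 2.89 and 2.70 at 6 h. Both later libraries lay far below both earlier ones, a 15.2-fold fall (log2 change -3.93 ± 0.13, adjusted p = 2.14e-18). Egln1, the prolyl hydroxylase that sets HIF1 alpha turnover in most cells, fell from 5.76 and 5.88 to 4.95 and 5.03 (log2 change -0.83 ± 0.13). Hif1a moved the other way, from 6.51 and 6.37 at 0 h to 7.80 and 7.57 at 6 h, 2.37-fold higher (adjusted p = 1.01e-08). These are levels of mRNA, and the HIF1 alpha protein was not measured.

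Other hypoxia-responsive genes fell by the largest amounts as a group, with a median log2 change of -2.06. Ankrd37, an ankyrin repeat protein, stood at 3.63 and 3.81 log2 CPM at 0 h and at 0.63 and 0.97 at 6 h (log2 change -2.92 ± 0.29, adjusted p = 3.48e-09). Bnip3, a mitochondrial protein of mitophagy and cell death, stood at 7.05 and 7.18 and then at 4.67 and 4.52 (log2 change -2.51 ± 0.18). Both genes had all 6 h libraries below all 0 h libraries. Vegfa, the vascular growth factor, went from 6.37 and 6.26 to 4.05 and 3.86, 5.14-fold lower. Adm, the vasodilator peptide adrenomedullin, was counted in 39 and 38 reads at 0 h and in 7 and 4 reads at 6 h, so that the size of its fitted change (-2.61 ± 0.40) depends on the offset of the values. P4ha1 and P4ha2, the catalytic subunits of collagen prolyl 4-hydroxylase, fell by 1.76 and 1.48, and Ddit4, an inhibitor of mTORC1, fell by 1.41. Ndrg1, a stress-responsive gene, did not pass (-0.78 ± 0.19).

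In upper glycolysis, the steps from glucose to triose phosphate, all 3 genes of phosphofructokinase, the main control point of the pathway, fell. Pfkp stood at 8.96 and 8.87 log2 CPM at 0 h and 7.34 and 7.22 at 6 h (log2 change -1.63 ± 0.09, adjusted p = 2.79e-14), Pfkm fell by 1.36 and Pfkl by 1.04. Hk1, a hexokinase, fell from 7.36 and 7.20 to 5.96 and 5.97, while Hk2, the other hexokinase listed, stood at 8.08 and 8.01 and then at 8.13 and 8.01. Triose phosphate isomerase (Tpi1) fell by 1.17 and aldolase A (Aldoa) by 0.72. Aldolase C (Aldoc) and glucose phosphate isomerase (Gpi1) had values of -0.92 ± 0.19 and -0.46 ± 0.11 and did not pass.

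In lower glycolysis, from triose phosphate to lactate, all 9 values were negative and 2 genes passed. Eno2, the enolase of neurons, fell by 1.61 and Ldha by 0.83. The most abundant genes had small values that did not pass, -0.21 ± 0.16 for Gapdh and -0.46 ± 0.12 for pyruvate kinase (Pkm). Of the transporters, Slc16a3, which exports lactate, stood at 6.95 and 7.08 log2 CPM at 0 h and at 4.50 and 4.77 at 6 h, 5.20-fold lower (adjusted p = 3.46e-13). Slc2a1, the widespread glucose transporter GLUT1, fell by 1.16. Slc16a1 (0.21 ± 0.19) and Slc2a3 (-0.30 ± 0.18) did not pass. Pfkfb3, which makes the activator of phosphofructokinase, fell by 0.78.

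With any 1 of the 4 libraries left out, 16 of the 21 calls held. The other calls missed the threshold by at most an adjusted p of 0.00120 (Aldoa, without 6 h replicate A), 0.000924 (Pfkfb3, without 0 h replicate A), 0.000459 (Ldha, without 0 h replicate B), 0.000265 (Egln1, without 0 h replicate B) and 0.000114 (Adm, without 0 h replicate A). The 8 markers of undifferentiated cells summed to 3614 and 3889 CPM at 0 h and to 4479 and 4582 at 6 h, with 1 called higher and 1 lower. The 4 neuroectoderm markers summed to between 14.4 and 17.8 CPM at 0 h and between 57.8 and 63.7 CPM at 6 h. Of these, 3 of 4 were higher. Most of this sum was Nes, at 3.82 and 3.47 and then 5.87 and 5.73 log2 CPM. Sox1 did not rise, and Zic1 was counted in 0 reads in both 0 h libraries and in 10 and 1 at 6 h. The 5 feeder fibroblast markers summed to between 24.3 and 28.1 CPM and then between 11.9 and 12.3 CPM, 1 of 5 lower. At 0 h most of this sum was Thy1 (456 and 533 reads), while Dcn had 0 reads in both libraries and Col1a2 had 2 in each. The 6 epiblast markers summed to 225 and 216 CPM at 0 h and to 176 and 173 CPM at 6 h, 2 of 6 lower. In other lists 1 of 5 primitive streak, 1 of 3 mesoderm and blood and 1 of 2 trophoblast markers were higher, and no endoderm marker was called. The part of any such cells in the changes was not tested.

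**Figure D2:**
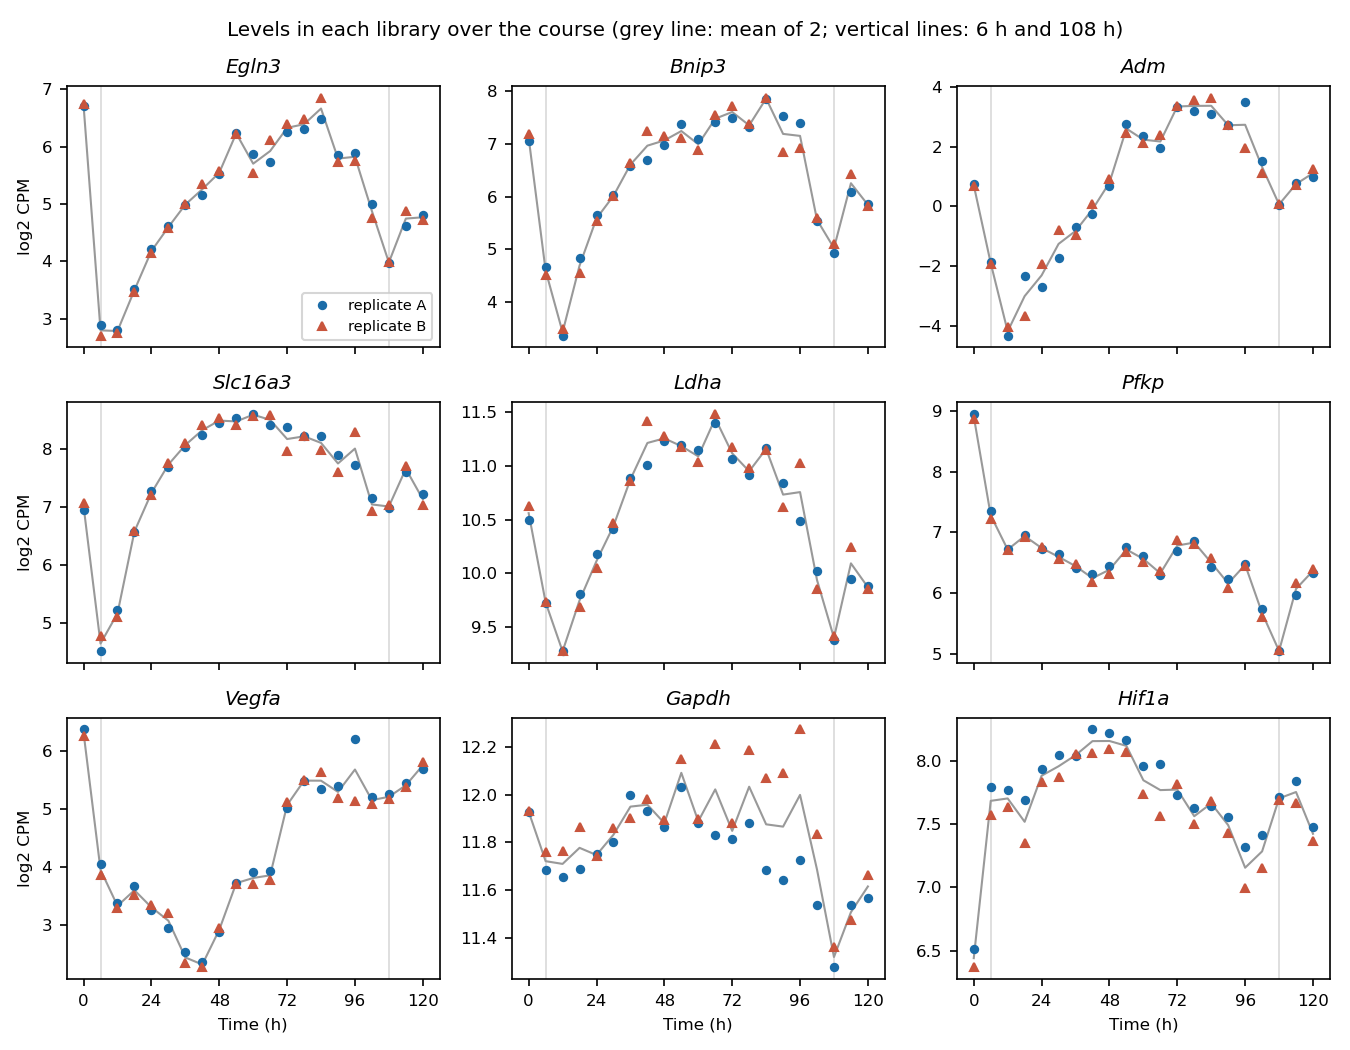
Level of 9 genes in each library (log2 CPM, vertical axes of different range) against time in hours, with circles for replicate A, triangles for replicate B, a grey line through the mean of 2 and vertical lines at 6 h and 108 h. Egln3 dropped from 6.71 and 6.74 at 0 h to 2.89 and 2.70 at 6 h and stood at 3.96 and 4.0 at 108 h; Hif1a rose at 6 h, and the replicates of Gapdh stood apart at 96 h (11.72 and 12.27).

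From 6 h to 12 h, a step added after the data had been seen, 5 genes fell and 0 rose, beside 2.88% and 1.47% of all genes. At an unadjusted p under 0.05 in limma 21 were lower and 2 higher, with no share of all genes at that level to set beside them. The 5 genes called were Adm, Aldoc (fell by 1.58), Ndrg1 (fell by 1.24), Bnip3 (fell by 1.17) and Pfkp (fell by 0.56). Adm was down to 1 read in replicate A and 2 reads in replicate B at 12 h.

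From 6 h to 24 h the list split. Of the 36 genes 6 rose and 4 fell, beside 5.64% of all genes higher and 5.76% lower. Slc16a3 returned to 7.28 and 7.20 log2 CPM at 24 h, 6.09-fold above 6 h and above both 0 h libraries. Egln3 rose to 4.21 and 4.15 (log2 change 1.39 ± 0.13), still below both 0 h libraries. Eno3, the enolase of muscle, Pfkm, Bnip3 and Tpi1 rose by 1.31, 1.08, 0.99 and 0.78. Aldoc fell by 2.12, Ndrg1 by 1.45, Slc2a3 by 1.18 and Pfkp by 0.54. The number of calls dropped from 10 to 6 without 6 h replicate A, 24 h replicate A or 24 h replicate B. Pfkp, Tpi1, Slc2a3 and Bnip3 were the calls lost, with an adjusted p of up to 0.00242.

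From 24 h to 48 h, 11 genes rose and 1 fell, beside 5.27% and 3.7% of all genes, and the median log2 change was 0.38. Adm rose from -2.70 and -1.92 to 0.67 and 0.92 log2 CPM. Ddit4 rose by 1.62, Bnip3 by 1.48, Egln3 by 1.37 and Slc16a3 by 1.25. The genes of glycolysis proper that rose were Ldha (10.18 and 10.05 to 11.23 and 11.28 log2 CPM, adjusted p = 1.62e-07), Pgk1, a kinase that makes ATP (0.96), Tpi1 (0.72) and Pfkl (0.71). Pfkfb3 rose by 1.06 and P4ha2 by 0.72. Ndrg1 fell again, from 3.72 and 3.45 to 2.05 and 2.08. In this step 7 of the 12 calls held with any 1 library left out, and Tpi1, Pfkl, Pgk1, P4ha2 and Adm were lost, with an adjusted p of up to 0.00172.

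From 48 h to 72 h, 13 genes rose and 0 fell, beside 5.6% and 3.78% of all genes. At an unadjusted p under 0.05 in limma 20 were higher and 3 lower, again without a share of all genes at that level. The called rise was counted in 6 of the 8 other hypoxia-responsive genes and in 2 of the 18 enzymes of glycolysis. Ndrg1 went from 2.05 and 2.08 to 4.45 and 4.64 log2 CPM (log2 change 2.48 ± 0.19), and Vegfa from 2.88 and 2.96 to 5.01 and 5.13 (2.15 ± 0.19). Both had been at their lowest mean at 42 h. Eno2 rose by 2.71, Adm by 2.55, P4ha2 by 1.57, Ddit4 by 1.48, Aldoc by 1.37 and P4ha1 by 0.57. Both glucose transporters rose, Slc2a3 by 1.78 and Slc2a1 by 0.70, as did Egln1 (1.30), Pfkfb3 (0.82) and Egln3 (0.78). Without 48 h replicate A or 72 h replicate A 8 calls were left, and without 48 h replicate B or 72 h replicate B 7. Aldoc, Slc2a1, Pfkfb3, Egln3, P4ha1 and Adm were those lost in at least 1 of these fits.

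From 72 h to 96 h, 1 gene rose and 1 fell, beside 2.39% and 1% of all genes. Pfkfb3 rose by 0.94, and Pdk1, the kinase that shuts pyruvate out of the mitochondrial cycle, fell by 0.61. Neither call was left without 72 h replicate B, and 1 was left without 72 h replicate A. Both were called without 96 h replicate A, and neither without 96 h replicate B, where Vegfa (1.15 ± 0.14) and Slc2a1 (0.95 ± 0.11) were higher instead.

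From 96 h to 108 h, 21 genes fell and 2 rose, beside 3.13% of all genes lower and 3.85% higher. The median log2 change was -0.92 for the 36 genes and 0.00 for all genes, and 28 of the 36 values were negative. The fall was counted in 7 of 8 other hypoxia-responsive genes, 6 of 9 of upper glycolysis, 5 of 9 of lower glycolysis, 2 of 3 of oxygen sensing, 1 of 4 transporters and 0 of 3 regulators, one of which, Pfkfb3, rose.

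Bnip3 stood at 7.38 and 6.91 log2 CPM in replicates A and B at 96 h and at 4.94 and 5.11 at 108 h, 4.36-fold lower (adjusted p = 9.29e-10). Ankrd37 went from 3.31 and 2.57 to 0.51 and 0.08 (log2 change -2.65 ± 0.29), and Ndrg1 from 5.48 and 4.83 to 3.04 and 3.25 (-2.01 ± 0.19). In each of these genes both later libraries lay below both earlier ones. Egln3 went from 5.89 and 5.76 to 3.96 and 4.0 (log2 change -1.85 ± 0.13, adjusted p = 3.26e-11), and Egln1 fell by 1.07. Hif1a was at 7.32 and 6.99 and then at 7.71 and 7.69 (0.55 ± 0.13) and did not pass. Adm fell by 2.67, P4ha1 by 1.43, Ddit4 by 1.37 and P4ha2 by 1.29, whereas Vegfa did not pass (-0.47 ± 0.19), with 6.22 in replicate A and 5.15 in replicate B at 96 h.

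Among the enzymes, Ldha stood at 10.49 and 11.03 log2 CPM at 96 h and at 9.38 and 9.42 at 108 h (log2 change -1.36 ± 0.13, adjusted p = 1.70e-08). Both late libraries lay below both early ones although the replicates had differed at 96 h. Pfkp fell by 1.42 to 5.04 and 5.05, its lowest mean of the course, and Pfkl by 1.31. Pfkm did not pass (0.22 ± 0.13). Aldoc fell by 1.45, Eno2 by 1.25, Tpi1 by 1.03, Aldoa by 0.96, Gpi1 by 0.95, Pgk1 by 0.88, Pkm by 0.85 and phosphoglycerate mutase 1 (Pgam1) by 0.71. Slc16a3 fell by 1.0, from 7.72 and 8.30 to 6.99 and 7.03. The genes that rose were Pfkfb3, from 6.04 and 6.15 to 7.15 and 7.08 (log2 change 1.02 ± 0.14), and Eno3 (0.90 ± 0.16).

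Leaving out 108 h replicate A reduced the 23 calls to 13, and leaving out 108 h replicate B, 96 h replicate A or 96 h replicate B gave 16, 22 and 20. Eno1 (-0.86 ± 0.15) and Slc2a1 (0.61 ± 0.11) were called only without 96 h replicate A and Vegfa (-1.0 ± 0.14) only without 96 h replicate B. The 13 calls that held in every one of these fits were all falls, of Gpi1, Pfkl, Pfkp, Tpi1, Ldha, Egln1, Egln3, Bnip3, Ankrd37, P4ha1, P4ha2, Ndrg1 and Ddit4. The value of Adm was -1.90 without 96 h replicate A (adjusted p = 0.000639) and that of Eno3 0.60 without 96 h replicate B (adjusted p = 0.00626). With 90 h in place of 96 h, a comparison added after the data had been seen, 19 genes were lower and 2 higher, beside 2.69% and 4.22% of all genes. The neuroectoderm markers summed to between 117 and 127 CPM at 96 h and between 328 and 355 CPM at 108 h, 2 of 4 higher. Most of this sum was Nes, which rose from 6.69 and 6.90 to 8.29 and 8.14 log2 CPM, and Sox1 also rose, whereas Zic1 was counted in 45 and 74 reads at 96 h and in 11 and 13 at 108 h and did not pass. The 6 epiblast markers summed to 705 and 524 CPM at 96 h and to 773 and 881 CPM at 108 h, 2 of 6 higher. Fgf5 rose from 6.84 and 6.55 to 7.97 and 8.19 log2 CPM, and Pou3f1 from 5.97 and 4.99 to 7.21 and 7.33. Otx2 went the other way, from 6.93 and 6.06 to 5.61 and 5.93, and 1 of the 6 was lower at an unadjusted p under 0.05 in limma. Primitive streak markers summed to 103 and 480 CPM at 96 h and to 93.9 and 139 CPM at 108 h. Endoderm markers summed to 9.40 and 27.1 CPM and then to 8.07 and 9.13 CPM. Feeder fibroblast markers summed to 23.9 and 8.91 CPM and then to 31.0 and 31.1 CPM. No marker of these lists was called, nor any undifferentiated, mesoderm and blood or trophoblast marker. The part of any such cells in the fall was not tested.

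For most of the listed genes 108 h was a low point. In both replicates 24 of the 36 genes stood lower at 108 h than at 96 h and at 120 h, beside 21.9% of all genes, and 11 stood lower at 6 h than at 0 h and at 24 h, beside 25.9%. In replicate A alone the count at 108 h was 28 and in replicate B alone 25, beside 31.8% and 34.3% of all genes. From 108 h to 120 h, 4 genes rose and 1 fell, beside 2.39% and 1.73% of all genes, and 30 of the 36 values were positive. Pfkp rose by 1.32 to 6.33 and 6.40 log2 CPM, P4ha1 by 1.16, Egln3 by 0.79 and Pfkl by 0.68, while Pfkfb3 fell by 0.99. Without any 1 of the 108 h or 120 h libraries 2 calls were left, Pfkp and P4ha1. In the 6-hourly steps around the low point, added after the data had been seen, Pfkp fell by 0.62 and Egln3 by 0.90 from 102 h to 108 h, beside 0.672% of all genes lower, while Pfkfb3 rose by 1.31, beside 1.37% higher. From 108 h to 114 h P4ha1 rose by 1.31, Bnip3 by 1.23 and Pfkp by 1.02, beside 0.986% of all genes higher.

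The 2 falls share no library. The genes lower in both were 15, which is 75% of the 20 lower from 0 h to 6 h and 71.4% of the 21 lower from 96 h to 108 h, and over all genes 1.46% were lower in both, which is 10.1% of the genes lower from 0 h to 6 h and 46.7% of those lower from 96 h to 108 h. They were Pfkl, Pfkp, Aldoa, Tpi1, Eno2, Ldha, Slc16a3, Egln1, Egln3, Bnip3, Ankrd37, P4ha1, P4ha2, Adm and Ddit4. Of these, 12 had risen in at least 1 of the 3 comparisons between 6 h and 72 h, as had 45.5% of all genes lower in both falls, 21 of the 36 listed genes and 2023 of all 14296 genes. With any 1 library left out, 9 were still called in both falls (Pfkl, Pfkp, Tpi1, Egln3, Bnip3, Ankrd37, P4ha1, P4ha2 and Ddit4).

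The difference between the falls was tested in the same fit, also after the data had been seen. In 7 genes the change from 0 h to 6 h was the more negative, beside 6.41% of all genes, and in 0 the change from 96 h to 108 h was, beside 3.51%. At an unadjusted p under 0.05 in limma the counts of listed genes were 10 and 6, and the shares of all genes at that level are not given. The largest differences were in Egln3 (2.08 ± 0.18, adjusted p = 2.15e-09) and Vegfa (1.89 ± 0.26, adjusted p = 2.55e-06). Pfkfb3, Hk1, Pfkm, Slc2a1 and Slc16a3 differed by 1.80, 1.75, 1.58, 1.5 and 1.38. Hk1 was at 5.54 and 5.06 log2 CPM at 96 h and 5.6 and 5.85 at 108 h, and Slc2a1 at 10.01 and 9.46 and then at 9.98 and 10.17. The genes lower from 96 h to 108 h and not called from 0 h to 6 h (Gpi1, Aldoc, Pgk1, Pgam1, Pkm and Ndrg1) did not pass this test of the difference. The 7 genes also passed without 96 h replicate A, where Eno3 was called as well, beside 9.82% of all genes, and without 96 h replicate B, beside 4.69%. The difference of Vegfa was 2.43 in the first of these fits and 1.36 in the second, where Ndrg1 was called with the more negative change from 96 h to 108 h (-1.56 ± 0.26), beside 2.35% of all genes.

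**Figure D3:**
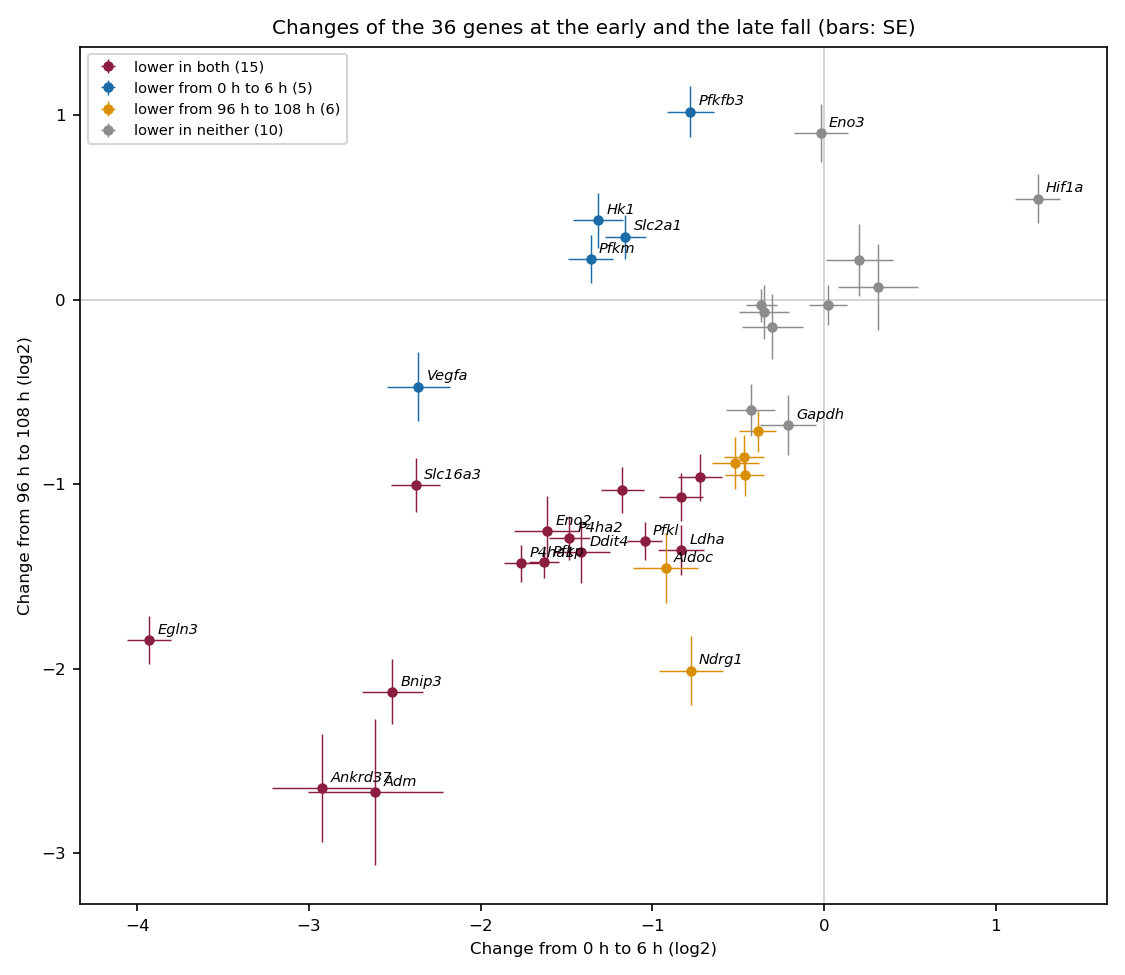
Log2 change from 0 h to 6 h (horizontal) and from 96 h to 108 h (vertical) of the 36 genes, with bars of 1 SE, coloured by where a gene was called lower. The 15 genes called lower in both lie at the lower left, with Egln3 at -3.93 and -1.85 and Ankrd37 at -2.92 and -2.65; Hif1a lies at 1.25 and 0.55.

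Between the ends of the course, 0 h and 120 h, 10 genes were lower and 3 higher, beside 10.1% and 12.9% of all genes, with a median log2 change of -0.32. Aldoc was at 6.03 in both replicates at 0 h and at 3.64 and 3.28 log2 CPM at 120 h, 5.93-fold lower. Pfkp was 5.83-fold, Ankrd37 5.25-fold, Ndrg1 4.66-fold and Egln3 3.88-fold lower. Hk1, Bnip3, Pdk1, Pfkl and Ldha fell by 1.28, 1.27, 1.21, 0.87 and 0.69. Higher at 120 h were Pfkfb3 (3.44-fold), Eno3 (3.37-fold) and Hif1a (1.98-fold). The call of Ldha was lost in each fit with a library left out, with an adjusted p of up to 0.00343.

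Within families that share a reaction, levels were compared per kilobase of exon, counting every annotated exon of a gene. These lengths were 13401 bases for Pfkp, 6675 for Pfkl and 3340 for Pfkm, and 3310 for Ldha and 1570 for Ldhb. Which gene of a family holds the larger share can therefore depend on the lengths. Lactate dehydrogenase was mostly Ldha, with 79.6% of the family's level in replicate A and 80.7% in replicate B at 0 h, and 90.9% and 90.3% at 48 h. At 108 h Ldha made up 57.8% and 54.3%, at 202 and 207 CPM per kb, the rest being Ldhb, the subunit that favours pyruvate. The phosphofructokinases shifted as well. The share of Pfkp went from 25.1% and 23.7% at 0 h to 4.21% and 3.92% at 108 h, where Pfkm, the muscle form, held 51.5% and 51.8%. Eno1, the common enolase, had its lowest mean share at 120 h, with 93.3% of its family in replicate A and 94.5% in replicate B.

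Slc16a3 held 50.7% and 50.3% of the summed level of the pair of lactate transporters at 0 h and 13.1% and 16.2% at 6 h. Egln3 exceeded Egln1 at 0 h, with 72.3% and 71.0% of their sum, and fell short of it at 6 h, with 24.4% and 21.2%. Hk2 was the more abundant hexokinase throughout, from 70.2% and 71.5% at 0 h to 93.5% and 92.8% at 48 h. Of the pair of bifunctional regulators, Pfkfb3 made up 44.7% and 42.3% at 12 h and 96.4% and 95.1% at 108 h. These shares are descriptions, and no test was run on them. The exon lengths come from a later annotation than the counts.

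**Figure D4:**
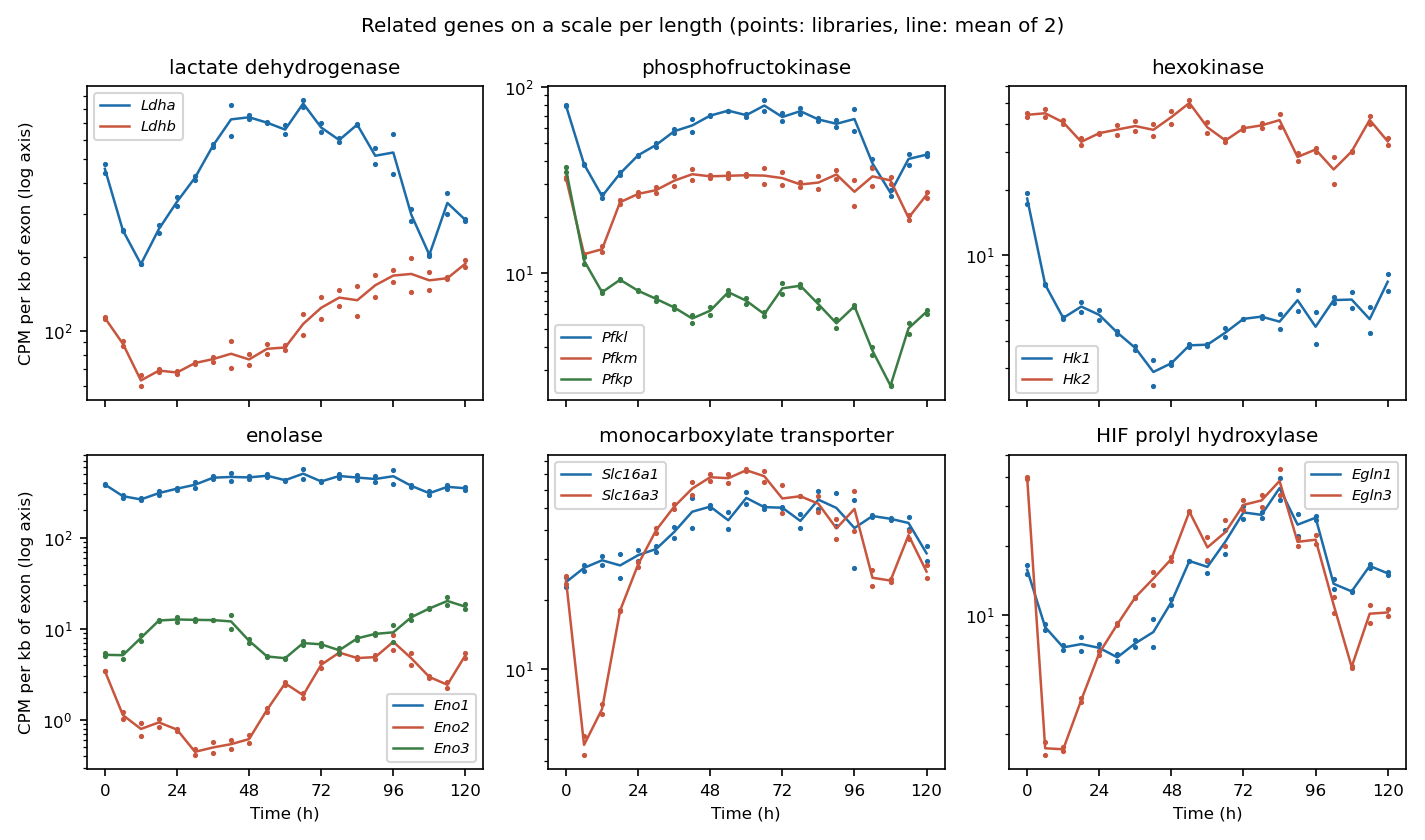
Levels of related genes (CPM per kb of exon, log axes of different range) against time in hours for 6 families, with points for the libraries and lines for the mean of 2. Ldha came closest to Ldhb at 108 h, where it held 57.8% and 54.3% of their sum, and Egln3 lay above Egln1 at 0 h and below it at 6 h.

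Other genes of these pathways were taken from fixed lists. Of 27 further genes of glucose and pyruvate metabolism, 7 fell and 3 rose from 0 h to 6 h and 4 fell and 0 rose from 96 h to 108 h, where 5 were higher at an unadjusted p under 0.05. Of all genes 14.5% were lower and 11.8% higher in the first and 3.13% lower and 3.85% higher in the second. Among them were Pdk2 (-2.60 ± 0.24), a kinase like Pdk1, and Slc2a4, the insulin-responsive glucose transporter, which fell in both (-2.45 ± 0.22 and -1.57 ± 0.22). Of 37 further genes that respond to or sense hypoxia, 15 fell and 3 rose from 0 h to 6 h and 10 fell and 3 rose from 96 h to 108 h. Stc1, a secreted glycoprotein, fell in both (-3.29 ± 0.57 and -3.47 ± 0.57), Car12, a carbonic anhydrase like Car9, fell by 3.42 in the first and Stc2 by 2.72 in the second. Hmox1, the haem oxygenase, rose by 2.60 in the first.

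Of the 7 genes of the pentose phosphate pathway, which branches from upper glycolysis, 1 rose from 0 h to 6 h (Rpe, 0.87 ± 0.10), and none was called from 96 h to 108 h, where 1 was higher and 2 lower at an unadjusted p under 0.05 in limma. Of the 17 genes of the citric acid cycle, 0 were called from 0 h to 6 h and 0 from 96 h to 108 h, and at an unadjusted p under 0.05 in limma 1 was higher and 4 lower in the first and 6 were higher and 0 lower in the second. Their median log2 changes were -0.05 and 0.05. Between 0 h and 120 h 4 of them fell, among them Sdhc (-0.96 ± 0.18) and Idh3g (-0.71 ± 0.11).

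The scaling of the libraries set where 0 lies. With the counted total as library size the median change of all genes moved from -0.05 to -0.27 from 0 h to 6 h, from 0.01 to 0.16 from 48 h to 72 h, from 0.00 to -0.14 from 96 h to 108 h and from -0.01 to 0.12 from 108 h to 120 h. The median of the 36 genes lay 0.79 below that of all genes from 0 h to 6 h and 0.92 below it from 96 h to 108 h under each of 3 scalings, since these move all genes of a library alike. The share of higher among all calls was 45.0% from 0 h to 6 h and became 26.0% with the counted total and 55.8% with libraries shifted to one median. From 96 h to 108 h it was 55.2% and became 28.3% with the counted total, from 48 h to 72 h it was 59.7% and became 79.8% and 48.8%, from 108 h to 120 h it was 58.1% and became 81.9% with the counted total, and from 72 h to 96 h it was 70.5% and became 54.3% with the shifted libraries.

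Some of these genes share sequence or position with others. Exons of Hk1, Gpi1, Pfkm, Pfkp, Aldoa, Tpi1, Gapdh, Pkm, Slc2a1, Hif1a, Bnip3, Ankrd37 and Ndrg1 overlap those of another annotated gene, and the strand setting of the counting is not given in the sources used here. Genes of glycolysis such as Gapdh, Ldha and Pgk1 also have processed copies elsewhere in the genome that can share reads, so that their levels are uncertain to that extent.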

How the data were processed

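Stranded poly-A RNA of W9.5 embryonic stem cells was sequenced in 42 libraries, 2 at each of 21 time points, and grouped by the time point and replicate letter in the labels. The authors used Trim Galore for trimming and TopHat2 for alignment to mm10, counted reads per gene of GENCODE release 2 with HTSeq, retained genes above 1 CPM in at least 2 samples, scaled the libraries with edgeR and applied voom. Versions and the strand setting of the counting are not given in the sources used here. The values deposited by the authors are in log2 (log2 CPM with an offset of 0.5 reads) for 14296 genes. Every value returned a whole number of reads, within 2.91e-08 of a read, which gave counted reads of 10120972 to 51652434 per library, with a median of 29692082. Names and exon lengths were taken from GENCODE release 21 for GRCm38, which matched 14177 genes and not 119.

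The deposited log2 values were fitted with limma 3.58.1 in R 4.3.3 (lmFit, eBayes with a trend) as a factor of 21 time points with 21 residual degrees of freedom. P-values were adjusted by Benjamini-Hochberg over all genes within a comparison, with the threshold of the study (adjusted p under 0.0001). They measure the spread between duplicate cultures of a single line. Counts at an unadjusted p under 0.05 cover the genes of a list only, without the share of all genes at that level. Python 3.11.15, numpy 2.4.6, pandas 2.3.3 and matplotlib 3.10.9 were used for the rest, and the fit was tested on simulated data. All members of the list were reported, with up to 3 genes of each other list per comparison, those with the largest change past the threshold. The genes and all lists were chosen with earlier results of these data known. Alternatives were the eBayes trend, voom weights, the offset, 2 scalings, a filter on low values, a replicate block, the adjustment, the threshold, the libraries fitted and each library left out.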

Additional observations from a re-analysis of the deposited data

How the results depend on the processing

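None of the 99 called changes of single genes reversed in 1287 values under other settings, and 113 of 396 values with a library left out and 67 others no longer passed. Some of these settings leave the log2 change itself as it was, so that their values could not reverse. They are the eBayes trend, the adjustment, the replicate block, the filter on low values and the fit of only the libraries compared. Counts of calls stayed within 1.5 times the reported ones except as follows. At an adjusted p under 0.05 the counts were 21 from 6 h to 24 h, 22 from 24 h to 48 h, 21 from 48 h to 72 h, 14 from 72 h to 96 h, 17 from 108 h to 120 h and 26 from 0 h to 120 h. The shares of all genes at that looser threshold are not given here, so that these counts do not set the list apart. With the counted total as library size 8 genes were called from 108 h to 120 h. When only the 4 libraries compared were fitted with limma, 0 of all genes passed from 48 h to 72 h, from 72 h to 96 h or from 96 h to 108 h. At an unadjusted p under 0.05 the listed genes were 19 higher and 2 lower, 3 higher and 2 lower, and 3 higher and 23 lower. No share of all genes at that level stands beside these counts. With each library left out in turn the counts ranged from 17 to 18 (0 h to 6 h), 6 to 7 (6 h to 24 h), 8 to 8 (24 h to 48 h), 7 to 8 (48 h to 72 h), 0 to 2 (72 h to 96 h), 13 to 22 (96 h to 108 h), 2 to 2 (108 h to 120 h) and 12 to 12 (0 h to 120 h), where the lone library left is assumed to vary like the others. The causes were not tested.

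The values do not settle whether the replicate letters pair the libraries across time points. Deviations of libraries of the same letter had correlations from -0.47 to 0.60 over 210 pairs of time points, with a mean of 0.08. With a replicate block 4 genes were called from 72 h to 96 h in place of 2, and 21, 10, 13, 14, 25, 5, 14 and 34 in the other comparisons in time order, the last for any change. Values of a few reads, such as those of Adm at 6 h and 12 h, depend on the offset and are limited by depth.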
